A study of Mus musculus with 3 samples.

Results

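Kupffer cells (KCs), the resident macrophages of the liver, carry a set of receptors and secreted lectins by which they are told apart from other macrophages. The 9 genes described here are Clec4f, Timd4, Marco, Cd5l, Folr2, Clec1b, Fcna, Cd207 and Adgre1. They were chosen by name as KC identity genes, and they are 9 of the 23860 genes found in the count tables. The question was which of them were lower and which kept their level after a high-fat, high-cholesterol (HFHC) diet, in KCs, in monocyte-derived macrophages (MoMFs), in monocytes and in endothelial cells. Single non-parenchymal liver cells of mice were captured with the BD Rhapsody system as 1 library per diet. The first library is of wild-type C57BL/6J mice on a normal chow diet (NCD) for 16 weeks. That identity comes from the study's methods by elimination, since the sample title names MCD and the header of its table names APAP0h. The second library, called the HFHC pool, mixes cells of wild-type and of Chi3l1-/- animals that were all fed HFHC for 16 weeks. The genotype of a given cell was not used here. The number of mice per library was not given in the sources used here. Since each diet has 1 library, diets were not tested against each other and no p-value is given. Diet, genotype, capture and library cannot be told apart.

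KCs sit in the liver sinusoids, where they take up particles, bacteria and dying cells from the blood. Their identity is kept by signals from the sinusoidal endothelium, the stellate cells and the hepatocytes, and resident KCs of mice are known by Clec4f and Timd4 at the cell surface. When KCs are lost, monocytes enter the niche and become macrophages, which gain the KC genes over time, Timd4 last among them. Among the 9 genes are C-type lectins (Clec4f, which binds galactose residues; Cd207, or langerin; Clec1b, the podoplanin receptor CLEC-2) and uptake receptors (Timd4 for phosphatidylserine on dying cells; Marco, a class A scavenger receptor; Folr2, folate receptor beta). Adgre1 encodes F4/80, an adhesion receptor found on most mouse macrophages. Cd5l, an inhibitor of macrophage apoptosis, and Fcna, the complement-activating lectin ficolin A, encode secreted proteins.

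Clec4f and Cd207 are neighbours on the minus strand of chromosome 6 (build GRCm38), at chr6:83644542-83656187 and chr6:83671215-83677857, with 15027 bases between them. Clec1b lies farther along the same chromosome, at chr6:129397297-129409335 on the plus strand. The other genes lie on chromosomes of their own: Fcna at chr2:25624666-25628030, Marco at chr1:120474538-120505024 and Folr2 at chr7:101839988-101857194 on the minus strand, and Timd4 at chr11:46810800-46844332, Cd5l at chr3:87357881-87371073 and Adgre1 at chr17:57358691-57483527 on the plus strand. All 9 are annotated as protein-coding. Clec1b overlaps Clec9a on the same strand, and Fcna overlaps the antisense gene Fcnaos. In KCs Clec9a had 468 (NCD) and 182 (pool) UMIs beside 4470 and 2105 of Clec1b, so that reads of this pair may have been split. Fcnaos had 13 and 7 UMIs beside 39834 and 5046 of Fcna.

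The bases upstream of the start site are printed for the gene with the lowest ratio in KCs with up to 4000 genes (Fcna), for the neighbouring pair Cd207 and Clec4f, and for the gene that was higher (Clec1b). They are the 250 bases before the start in RefSeq (build GRCm38.p6), in the direction of the gene, and capitals mark the core letters GAGGAA of PU.1, the macrophage lineage factor, on either strand (TTCCTC on the other). In order they come from chr2:25627975-25628224, chr6:83677858-83678107, chr6:83656117-83656366 and chr6:129397047-129397296.
Fcna: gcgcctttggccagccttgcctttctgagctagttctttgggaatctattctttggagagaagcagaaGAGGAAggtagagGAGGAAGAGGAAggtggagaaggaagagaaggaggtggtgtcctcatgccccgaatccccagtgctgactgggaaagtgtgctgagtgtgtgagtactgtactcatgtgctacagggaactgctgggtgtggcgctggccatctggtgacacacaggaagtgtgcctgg
Cd207: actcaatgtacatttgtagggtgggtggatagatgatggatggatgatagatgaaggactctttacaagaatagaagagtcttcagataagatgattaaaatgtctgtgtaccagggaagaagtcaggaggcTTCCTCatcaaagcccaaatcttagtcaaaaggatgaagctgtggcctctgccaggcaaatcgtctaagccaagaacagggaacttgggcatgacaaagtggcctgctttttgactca
Clec4f: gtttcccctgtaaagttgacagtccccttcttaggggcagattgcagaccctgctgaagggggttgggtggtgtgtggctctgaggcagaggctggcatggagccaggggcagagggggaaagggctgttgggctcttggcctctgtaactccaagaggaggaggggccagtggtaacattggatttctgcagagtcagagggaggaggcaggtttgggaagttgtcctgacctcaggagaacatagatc
Clec1b: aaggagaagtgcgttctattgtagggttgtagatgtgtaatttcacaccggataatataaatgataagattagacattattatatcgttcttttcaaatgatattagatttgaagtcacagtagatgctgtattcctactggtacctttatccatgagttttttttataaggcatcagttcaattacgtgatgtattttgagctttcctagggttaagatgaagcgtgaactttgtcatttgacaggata

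Of the 9 genes, 8 had such a sequence, and Adgre1 is named only. The core GAGGAA was found upstream of 4 of these 8 genes (Fcna, Cd207, Marco and Cd5l) and in 23.3% of all 32851 upstream sequences of this length. Fcna held it 3 times, at 182, 169 and 163 bases before the start. The MAF letters TGCTGAC were found upstream of Fcna and Timd4 and in 3.81% of all sequences, the nuclear receptor letters AGGTCA upstream of Clec4f and Timd4 and in 14% of all, and the AP-1 site TGACTCA upstream of Cd207 and Folr2 and in 4.46% of all. Motifs were searched on both strands, and none of the 4 contains another. Genes with and without the core stood on both sides: of the 4 genes with it, Fcna and Cd207 were lower in the KCs of the pool and Marco and Cd5l were not.

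The NCD library held 53720863 UMIs (unique molecular identifiers, 1 for each captured RNA molecule) in 30734 cells and the pool 71981673 UMIs in 21601 cells. Of the cell index numbers, 756 occurred in both libraries. Cells with 200 to 4000 genes and at most 25% mitochondrial UMIs were kept. Cell classes were made from clusters without use of the 9 genes, and class names stand for KC-like, MoMF-like, monocyte-like and endothelial-like cells. The classes held 2703 and 399 KCs (NCD, pool), 84 and 93 MoMFs, 440 and 582 monocytes and 2630 and 649 endothelial cells. The MoMF cluster scored 2.34 for MoMF markers and 2.37 for KC markers. It took its name from its leading genes over other cell types, which held the MoMF markers Cx3cr1 and Trem2 and no KC marker. In KCs all 9 other KC markers used for the naming (Vsig4, C6, Cd163, Slc40a1, Spic, Id3, Il18bp, Hmox1 and Sdc3) were detected in both libraries. Pool cells were deeper, with a median of 10091 UMIs per KC against 4515 in the NCD library. The gene deleted in a part of the pooled mice, Chil1 (Chi3l1), had 17 UMIs in the KCs of the NCD library and 0 in those of the pool. In neutrophils its level was 597 CPM in the NCD library against 219 CPM in the pool (CPM are a gene's UMIs summed over a class and scaled to the class total). With so few UMIs in KCs, this gene was no check of the labels there.

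The limit of 4000 genes removed KCs unequally. Of the pool cells that passed the other limits, 812 had over 4000 genes, and 493 of them were KCs when all cells were clustered together, whereas 25 of 67 such NCD cells were. Cells above 4000 genes, of any class, held most of the 9 genes' UMIs in the pool, from 61.7% for Cd207 to 81.7% for Marco. In the NCD library they held 3.30 to 9.90%. The 493 KCs among them held from 41.4% for Cd207 to 68.9% for Marco of the pool's UMIs. The values below are for cells with up to 4000 genes, the limit that the study used. The 19625 pool cells kept here are not the same set as the cells that the study kept. Values with no upper limit, for which all cells were clustered anew, stand beside the others where this is said.

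In KCs, 3 of the 9 genes were lower in the HFHC pool, 1 was higher and 5 lay between. Lower and higher stand for a log2 ratio of CPM, pool over NCD library, of at least 0.5 in size. Over all 8887 genes with at least 100 UMIs, 14.8% were lower and 12.4% were higher, so that 3 and 1 of 9 are to be read against those shares. The lower genes were Fcna, Cd207 and Folr2, and the higher gene was Clec1b. Clec4f, Timd4, Marco, Cd5l and Adgre1 stayed within 0.5. At a log2 ratio of 1 only Fcna was lower and 0 genes were higher, beside 3.83% and 3.77% of all genes. The median log2 ratio was -0.28 over the 9 genes and -0.02 over all genes. Of the markers of other classes, the 9 of MoMFs summed to 116 CPM in NCD KCs and 787 CPM in pool KCs, the 8 of monocytes to 402 and 368 CPM and the 7 of hepatocytes to 728 and 406 CPM, with 0 of them undetected. The part of these cells in the ratios was not tested. Intervals are exact 95% intervals, from UMI counts for levels and ratios and from numbers of cells for shares. They cover counting error only, not the spread between mice. Those from UMI counts were taken on sums over cells and do not cover the spread between cells either. Intervals that lie apart are therefore no test of a difference between groups of cells.

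Of the C-type lectins, Clec4f and Cd207 had less in the pool and Clec1b had more. For Clec4f the NCD library gave 6164 CPM (6122 to 6207) and the pool 4485 CPM (4417 to 4554), a log2 ratio of -0.46 (-0.48 to -0.43). Cd207 stood at 237 CPM (228 to 245) and 150 CPM (138 to 163), a log2 ratio of -0.65 (-0.79 to -0.53). Clec1b stood at 334 CPM (324 to 344) and 575 CPM (550 to 600), a log2 ratio of 0.78 (0.71 to 0.86). The ratio of Clec4f was under the limit of 0.5 in size. With no upper limit on genes the ratios were -0.34 for Clec4f, -1.56 for Cd207 and 0.82 for Clec1b. Of the 9, Cd207 moved most with the limit, and it stood at 67.5 CPM in the KCs above 4000 genes of the pool. With the limit kept and each library clustered by itself, Cd207 stood at 61.0 CPM in pool KCs, so its level also depended on the clustering.

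The genes of secreted proteins parted as well. Fcna was at 2976 CPM (2947 to 3005) in the NCD library and at 1377 CPM (1339 to 1416) in the pool, a log2 ratio of -1.11 (-1.15 to -1.07), the lowest of the 9 in cells with up to 4000 genes. Here 2.71% of all genes compared in KCs had a lower ratio. Cd5l was at 3411 CPM (3380 to 3443) and 4102 CPM (4036 to 4168), a log2 ratio of 0.27 (0.24 to 0.29). So Fcna, a ficolin, was lower, while Cd5l, an apoptosis inhibitor made by the same cells, was above 0 but within 0.5. With no upper limit the ratios were -0.85 for Fcna and 0.43 for Cd5l, and Cd207, at -1.56, was then the lowest. Cd207 (-1.99) was also below Fcna (-0.96) when each library was clustered by itself.

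Of the uptake receptors, Folr2 was lower and Timd4 and Marco were near level. Folr2 was at 1949 CPM (1925 to 1973) in the NCD library and at 1332 CPM (1295 to 1370) in the pool, a log2 ratio of -0.55 (-0.59 to -0.50), just past the limit. With no upper limit it was at -0.34 and no longer counted as lower. Timd4 was at 794 CPM (779 to 810) and 741 CPM (714 to 770), a log2 ratio of -0.10 (-0.16 to -0.04). Marco was at 574 CPM (561 to 587) and 551 CPM (527 to 576), a log2 ratio of -0.06 (-0.13 to 0.01). Timd4 is the receptor that marks long-resident KCs. Timd4 stood at 0.23 and Marco at 0.32 with no upper limit. Adgre1, the general macrophage receptor, was at 1321 CPM (1301 to 1340) and 1090 CPM (1057 to 1125), a log2 ratio of -0.28 (-0.33 to -0.23), and at -0.07 with no upper limit.

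**Figure D1:**
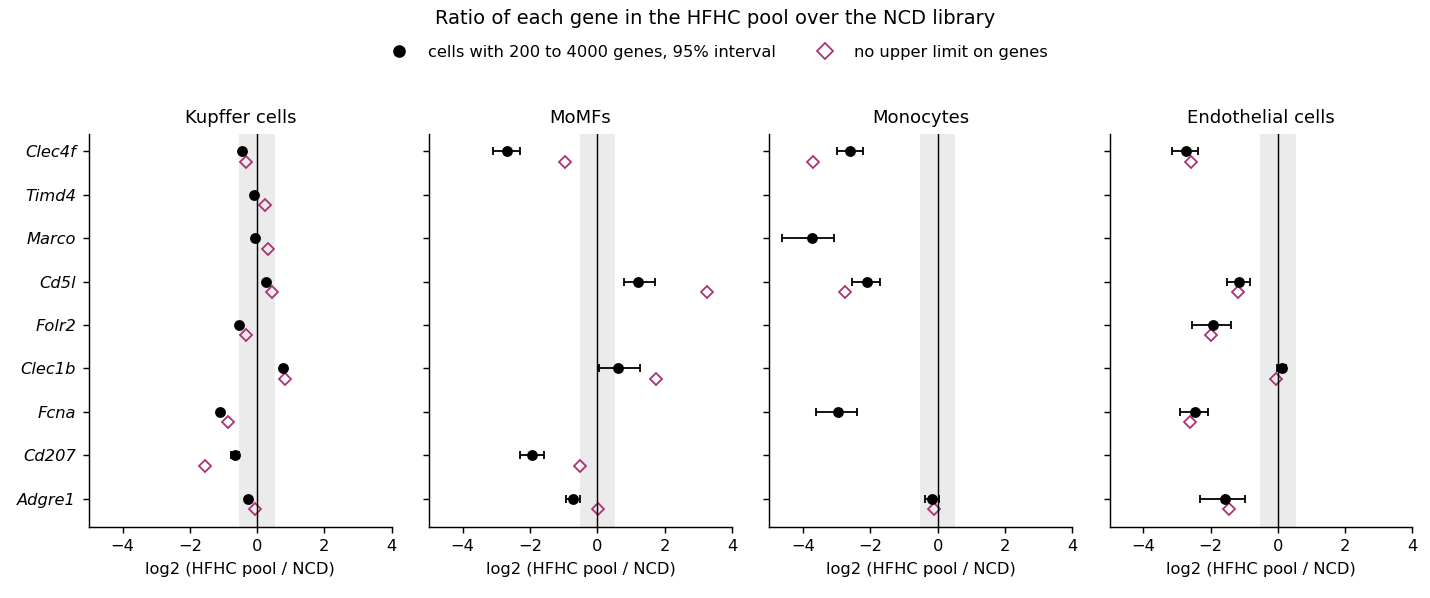
Log2 ratio of the level (CPM) in the HFHC pool over the NCD library for each gene (rows) in 4 cell classes (panels). Black points are cells with 200 to 4000 genes with exact 95% counting intervals. Diamonds are the ratios with no upper limit on genes, for which all cells were clustered anew. The grey band marks ratios under 0.5 in size, and genes with under 100 UMIs are left out. Among the black points in KCs Fcna, at -1.11, lies farthest to the left and Clec1b, at 0.78, farthest to the right, while among the diamonds Cd207, at -1.56, lies left of Fcna, at -0.85.

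The KCs above 4000 genes were measured on their own as well. In the 493 such KCs of the pool Clec4f was at 4846 CPM, Cd5l at 4692, Fcna at 1672, Folr2 at 1562, Adgre1 at 1296, Timd4 at 965, Marco at 780 and Clec1b at 590 CPM. Set against the KCs with up to 4000 genes of the NCD library, Fcna (-0.83) and Cd207 (-1.81) were lower and Clec1b (0.82) was higher, and the other 6 genes stayed within 0.5, beside 15.2% lower and 14.3% higher among all genes. Set against the 25 KCs above 4000 genes of the NCD library, Marco (-0.69) and Cd207 (-1.53) were lower, Cd5l (0.54) and Clec1b (0.98) were higher, and Fcna was at -0.40, where 24.9% of all genes were lower and 16.4% higher. Cd207 was thus lower, and Clec1b higher, with either set of NCD cells, while the size of the Fcna ratio depended on which NCD cells it was compared with.

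KCs formed several clusters, and in each of them Fcna had less and Clec1b more in the pool. In the largest (1848 NCD and 325 pool cells) Fcna was at a log2 ratio of -1.15 and Clec1b at 0.74. In the next (619 and 48 cells) Fcna was at -0.66 and Clec1b at 1.05. In the 3 smallest, with 5 to 13 pool cells each, Fcna ran from -1.63 to -0.83 and Clec1b from 0.58 to 1.34, and for Clec1b the interval held 0 in 2 of these. That second cluster also had more Marco in the pool, at 702 and 1155 CPM (0.72, 0.52 to 0.91), and more Cd5l, at 3538 and 5315 CPM (0.59, 0.50 to 0.68), whereas Marco stood at -0.10 in the largest. In a mixed cluster that carried hepatocyte markers beside KC markers (346 and 104 cells), which was left out of the KCs, all 9 genes had less in the pool, from -0.36 for Clec1b to -3.39 for Cd207. All 9 also had less in the mixed cluster with T cell markers (15 pool cells). In those with endothelial and neutrophil markers (25 and 7 pool cells) Clec1b alone lay above 0, at 0.35 and 0.26 with intervals that held 0. In that with B cell markers (2 pool cells) Clec4f, Timd4, Cd5l, Clec1b and Adgre1 lay above 0 and the others below. Mixed cells held 12.9 to 18.0% of the UMIs of each gene in the kept NCD cells and 4.78 to 8.57% in the kept pool cells.

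The share of KCs with a UMI of each gene was taken after each cell was thinned to 2000 UMIs, which kept 2140 NCD and 343 pool KCs and left out 563 and 56 shallower ones. Clec4f was detected in 99.8% (99.5 to 99.9%) of NCD KCs and in 89.5% (85.8 to 92.5%) of pool KCs. Fcna was detected in 96.7% and 78.4%, Folr2 in 95.5% and 79.3%, and Adgre1 in 89.7% and 81.6%. Timd4 was detected in 73.8% (71.9 to 75.7%) and 61.8% (56.4 to 67.0%) and Cd207 in 29.3% (27.3 to 31.2%) and 11.7% (8.46 to 15.5%). Cd5l was detected in 99.2% and 99.1% and Marco in 33.2% (31.2 to 35.3%) and 30.3% (25.5 to 35.5%), while Clec1b was detected in 49.5% (47.4 to 51.7%) and 62.4% (57.0 to 67.5%). At 1000 UMIs the Timd4 share was 52.1% (50.1 to 54.1%) and 49.4% (44.3 to 54.4%), with overlapping intervals, so that the gap in this share depended on the depth chosen. Among all KCs, without the limit on genes and again at 2000 UMIs, the shares were 99.5% and 95.4% for Clec4f, 96.8% and 85.8% for Fcna, 95.7% and 86.3% for Folr2, 76.0% (74.1 to 77.8%) and 72.4% (69.2 to 75.5%) for Timd4, and 89.4% and 87.1% for Adgre1. Cd207 then stood at 29.1% and 9.98%, Clec1b at 46.0% and 66.6%, and Marco at 33.4% and 37.8%. B cells, taken as the class that should lack these genes, gave a background share, at a median of 1320 and 2615 UMIs before thinning. It was 12.0% and 5.10% for Clec4f, 6.63% and 6.56% for Cd5l, and 6.63% and 1.60% for Fcna, all far under the shares in KCs. Whether free RNA, mixed cells or doublets gave this share was not tested. The thinning kept 166 of 1388 NCD and 686 of 822 pool B cells, and at 1000 UMIs, which kept 1044 and 820, Clec4f was at 6.71% and 2.2%.

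**Figure D2:**
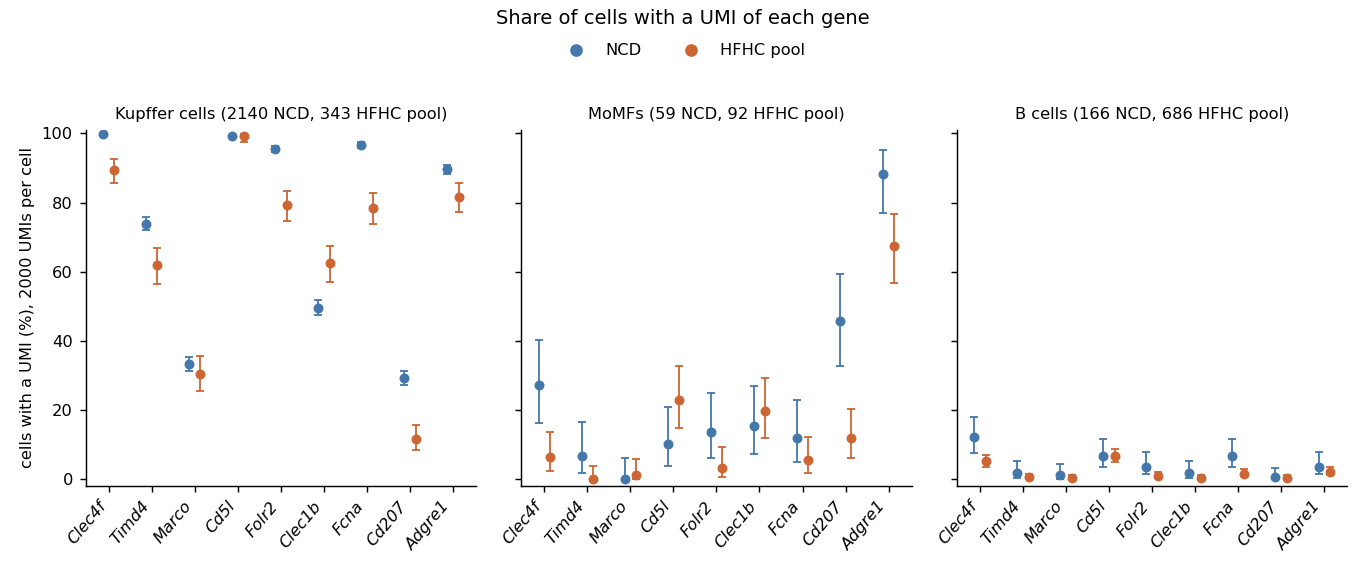
Share of cells (%) with at least 1 UMI of each gene after thinning to 2000 UMIs per cell, in KCs, MoMFs and B cells of the NCD library (blue) and the HFHC pool (orange), with exact 95% binomial intervals. In KCs the pool points lie lower for Clec4f (99.8 and 89.5%), level for Cd5l (99.2 and 99.1%) and higher for Clec1b (49.5 and 62.4%).

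The number of the 9 genes found in a single KC was counted as well. At 2000 UMIs a KC had a median of 7 of the 9 genes in the NCD library and of 6 in the pool. At least 6 genes were found in 88.2% of NCD KCs and in 69.1% of pool KCs. KCs with at most 2 of the genes made up 0.187% of the NCD cells and 4.08% of the pool cells. The median was 7 in both libraries with no upper limit on genes, where at least 6 genes were found in 87.9% and 81.2% of KCs and at most 2 genes in 0.0929% and 1.11%. The low end of the pool was smaller in that setting, in which all cells were also clustered anew.

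**Figure D3:**
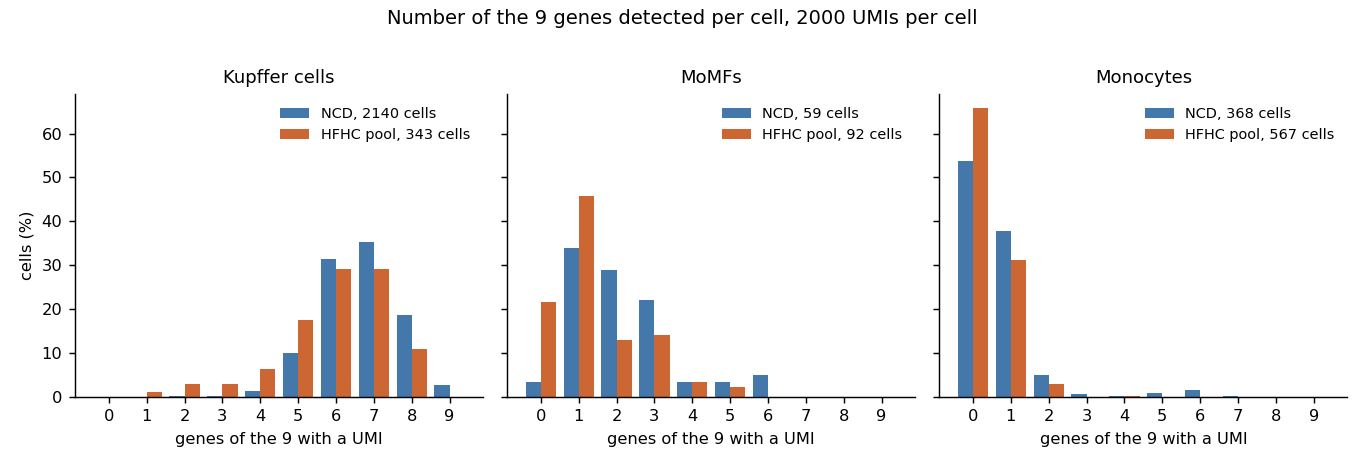
Share of cells (%) by the number of the 9 genes with a UMI, at 2000 UMIs per cell, in KCs, MoMFs and monocytes (blue bars, NCD library; orange bars, HFHC pool). The median KC had 7 genes in the NCD library against 6 in the pool, which also has more KCs with at most 2 (4.08 against 0.187%).

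KCs with and without a Timd4 UMI were set side by side for the other 8 genes. In the pool at 2000 UMIs, Clec4f was at 5554 CPM (5332 to 5783) in the 212 KCs with Timd4 and at 3050 CPM (2842 to 3269) in the 131 without. Cd207 was at 42.5 CPM (25.2 to 67.1) and 305 CPM (242 to 380) in these pool cells. Folr2 was at 1630 and 855 CPM, Fcna at 1634 and 859, Marco at 710 and 405 and Cd5l at 4495 and 3767 CPM in these cells, and the intervals of Clec1b and Adgre1 overlapped. In the pool Cd207 was thus the gene that was higher without Timd4, and the others given with values were lower. In the NCD library the cells with and without Timd4 stood at 6275 and 6231 CPM for Clec4f and at 235 and 219 CPM for Cd207, with overlapping intervals, while Fcna stood at 3011 and 2687, Cd5l at 3432 and 3191 and Marco at 529 and 449 CPM with intervals apart. The pool cells with no upper limit stood at 5196 and 3674 CPM for Clec4f and at 34.9 and 263 CPM for Cd207, and there Adgre1 was apart too, at 1305 and 1045 CPM. For the NCD library without that limit Marco was level, at 514 and 513 CPM, whereas Clec4f (6347 and 6083), Fcna (2984 and 2624), Cd5l (3443 and 3170) and Folr2 (1947 and 1756 CPM) were apart. A cell without a UMI at this depth need not lack the RNA.

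The MoMF class, named from markers and not from a measured origin, had enough UMIs for 5 of the 9 genes. Of these, 3 were lower in the pool and 2 were higher, where 18.3% of the 1796 genes compared were lower and 18.8% were higher. At a ratio of 1, 2 were lower and 1 was higher, beside 4.68% and 6.24% of all genes. Clec4f had the lowest ratio of the 5, at 660 CPM (569 to 761) in the NCD library against 102 CPM (80.6 to 128) in the pool, -2.68 (-3.09 to -2.30). Cd207 was at 573 CPM (165 UMIs) in the NCD library and at 148 CPM (112 UMIs) in the pool, a log2 ratio of -1.94 (-2.31 to -1.59). Adgre1 was at 1073 and 652 CPM, a log2 ratio of -0.72 (-0.93 to -0.51). Cd5l stood the other way, at 163 CPM (47 UMIs) and 387 CPM (292 UMIs), a log2 ratio of 1.22 (0.80 to 1.72). So the RNA of Clec4f, Cd207 and Adgre1 was lower in the MoMFs of the pool, and that of Cd5l and of Clec1b (0.61, 0.06 to 1.27) was higher. With no upper limit on genes, where the class took in further cells, Cd5l stood at 3.25, Clec4f at -0.97, Clec1b at 1.75, Cd207 at -0.51 and Adgre1 at 0.018. The 9 KC markers summed to 3660 and 3100 CPM in MoMFs, with 0 and 1 of them undetected, and the 9 MoMF markers to 2930 and 4650 CPM. The class thus had more of the KC than of its own markers in the NCD library and less in the pool, and their part in these ratios was not tested.

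In thinned MoMFs Clec4f was found in 27.1% (16.4 to 40.3%) and 6.52% (2.43 to 13.7%). Cd207 was found in 27 of 59 NCD cells at 2000 UMIs (45.8%, 32.7 to 59.2%) and in 11 of 92 pool cells (12.0%, 6.12 to 20.4%), and Adgre1 in 88.1% (77.1 to 95.1%) and 67.4% (56.8 to 76.8%). Cd5l was found in 10.2% (3.82 to 20.8%) and 22.8% (14.7 to 32.8%), with overlapping intervals, and in 6.63% and 6.56% of B cells. Clec1b, at 104 and 163 CPM (0.61, 0.06 to 1.27), was found in 15.3% and 19.6% of MoMFs against 1.81% and 0.437% of B cells. Marco had 0 UMIs in the NCD library (which allows up to 12.8 CPM) and 3 in the pool. Timd4 had 21 and 6 UMIs, and both genes were too low for a ratio.

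In both libraries KCs stood above the other classes for most of the genes. All 9 genes were at least 1 log2 unit higher in KCs than in monocytes and than in endothelial cells, in either library. Of all genes compared, 13.6% and 14.2% met this in the NCD library and 11% and 14.2% in the pool. Over MoMFs 7 of the 9 did in each library, where 7.46% and 5.88% of all genes did. The exceptions were Cd207, which in the NCD library was lower in KCs than in MoMFs (-1.28, -1.50 to -1.04) and in the pool was level (0.01, -0.28 to 0.32), and Adgre1 (0.29, 0.14 to 0.47 and 0.74, 0.61 to 0.88). With no upper limit on genes Adgre1 stood at 1.74 and 1.65 and Cd207 at 0.39 and -0.66. For Clec4f the gap between KCs and MoMFs was 3.22 (3.02 to 3.44) in the NCD library and 5.44 (5.14 to 5.80) in the pool.

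**Figure D4:**
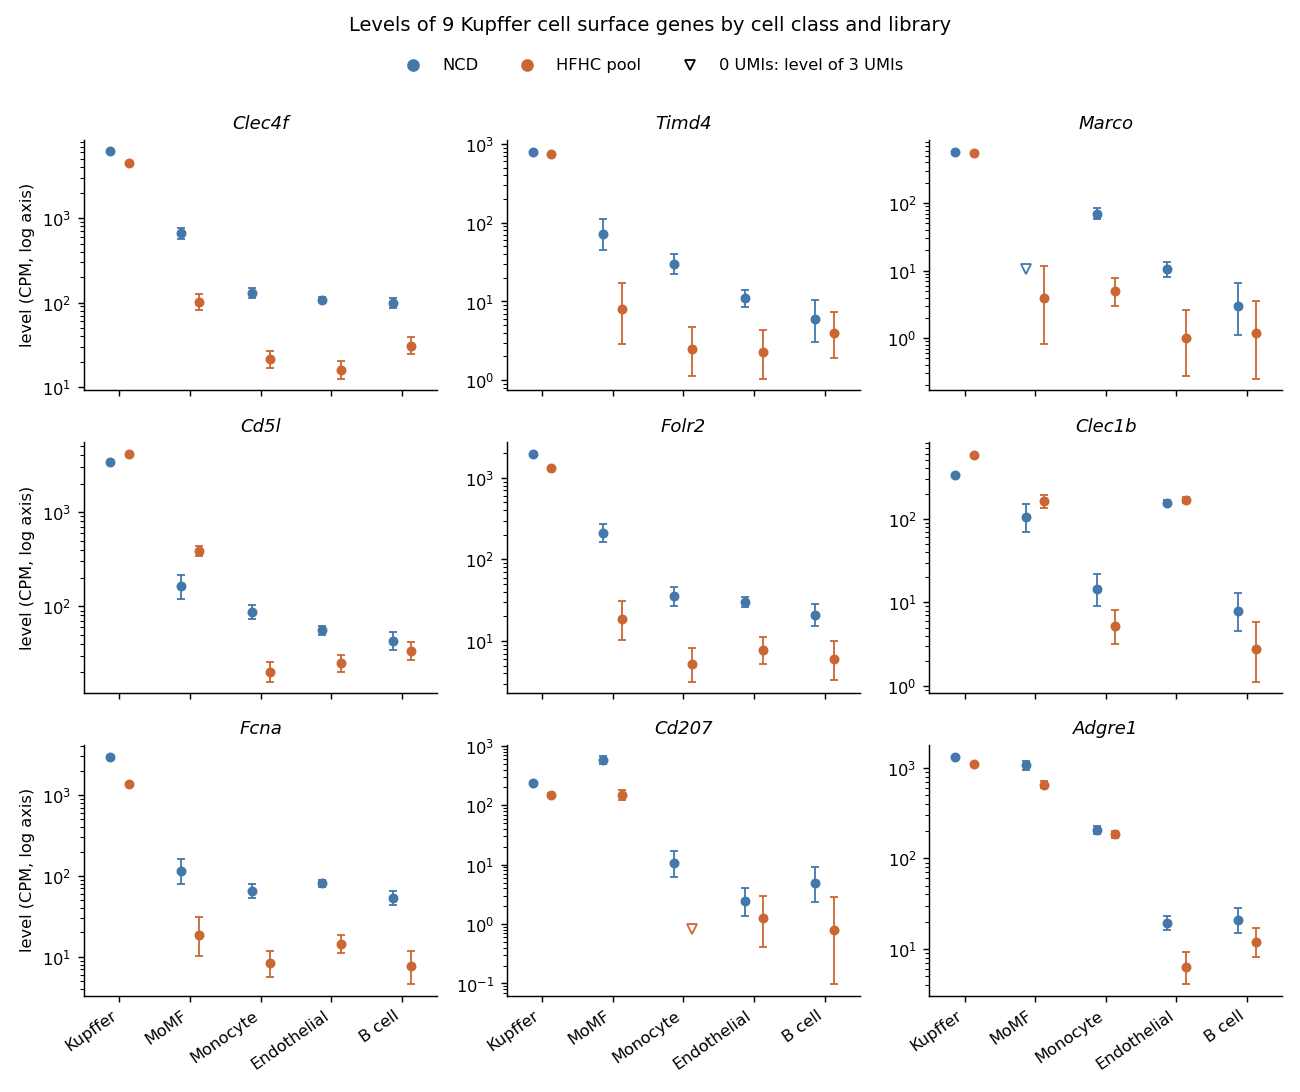
Level of each gene (CPM, log axes that differ between panels) in 5 cell classes of the NCD library (blue) and the HFHC pool (orange), with exact 95% Poisson intervals; open triangles mark classes with 0 UMIs at the level that 3 UMIs would give. KCs lead in 8 of 9 panels, and in Cd207 the MoMFs of the NCD library stand higher (573 against 237 CPM).

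Monocytes and endothelial cells had little of most genes, and most of those with enough UMIs were lower in the pool. B cells, T cells and hepatocytes went the same way, so the fall was not particular to monocytes and endothelium. The median log2 ratio of the genes with enough UMIs was -1.66 in B cells (3 genes), -1.76 in T cells (5) and -1.67 in hepatocytes (7). Over all genes compared in these classes it was 0.02, 0.04 and 0.15. For monocytes and endothelial cells the medians of the members were -2.59 and -1.75. In monocytes 4 of the 5 genes with enough UMIs were lower (12.7% of 5973 genes were lower, 13.3% higher), and the same 4 at a ratio of 1 (2.63% lower, 3.13% higher). Clec4f stood at 130 and 21.3 CPM, Marco at 69.7 and 4.99 CPM, Cd5l at 87.9 and 20.2 CPM and Fcna at 65.9 and 8.32 CPM. Adgre1 alone was near level, at 206 CPM (329 UMIs) and 184 CPM (663 UMIs), a log2 ratio of -0.17 (-0.36 to 0.03), and was found in 28.8% and 27.3% of monocytes against 3.61% and 2.19% of B cells. In one monocyte cluster of the NCD library (167 cells) Marco had 105 UMIs against 15 in the 300 pool cells, though at 2000 UMIs only 5 of 368 NCD monocytes showed it.

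In endothelial cells 5 of the 6 genes with enough UMIs were lower (17.8% of 8935 genes were lower, 20.6% higher), and also at a ratio of 1 (4.62% lower, 9.71% higher). Clec4f stood at 108 and 16.1 CPM, Fcna at 81.0 and 14.6, Cd5l at 55.8 and 24.9, Folr2 at 30.1 and 7.78, and Adgre1 at 19.3 and 6.28 CPM. Clec1b was the exception, at 157 CPM (957 UMIs) in the NCD library and 169 CPM (673 UMIs) in the pool, a log2 ratio of 0.11 (-0.03 to 0.25). It was found in 25.6% (23.3 to 28.1%) and 25.5% (22.0 to 29.1%) of endothelial cells at 2000 UMIs, against 1.81% and 0.437% of B cells. Clec1b was thus detected in endothelium well above its share in B cells, and level in both libraries, while it was higher in the KCs of the pool.

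B cells, the background class, had enough UMIs for 3 of the 9 genes. In them Clec4f stood at 98.3 CPM (85.0 to 113) and 30.8 CPM (24.3 to 38.5), and Fcna at 53.4 and 7.61 CPM, whereas Cd5l stood at 42.9 and 33.6 CPM with overlapping intervals. The log2 ratios were -1.66 for Clec4f, -2.75 for Fcna and -0.35 for Cd5l. The Clec4f level of endothelial cells and monocytes was close to that of B cells in the NCD library and below it in the pool. KCs held a larger part of the NCD library (11.6% of kept cells) than of the pool (2.03%, or 4.25% with no upper limit on genes against 11.6%). Hepatocytes still made up 13.5% and 46.0% of the kept cells, so these parts are not those of the liver. The part of free KC RNA in the levels of the other classes was not tested.

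The 9 genes' UMIs were divided among them in class-dependent shares. In NCD KCs Clec4f made up 34.7%, Cd5l 19.2% and Fcna 16.8% of these UMIs, and in NCD hepatocytes 34.7%, 18.0% and 16.3%. In pool KCs they made up 31.1%, 28.5% and 9.56%, and in pool hepatocytes 29.9%, 31.4% and 9.50%. Hepatocytes thus lay near the KCs of their own library for these genes, though in the pool the intervals were apart for Cd5l and for Folr2 (9.25% in KCs and 6.76% in hepatocytes), and in the NCD library for Clec1b (1.88% and 3.22%). In T cells the same genes made up 39.6%, 18.0% and 17.5% in the NCD library and 30.5%, 32.0% and 11.7% in the pool, and in B cells 38.0%, 16.6% and 20.7% and 31.2%, 34.0% and 7.69%. The intervals of T and B cells were apart from those of the KCs for some genes, among them Clec4f in the T cells and Fcna in the B cells of the NCD library. In endothelial cells Clec1b made up 33.0% of the 9 genes' UMIs in the NCD library against 69.5% in the pool. In monocytes Adgre1 made up 31.7% and 73.0%, and in MoMFs Adgre1 made up 36.1% and 43.4% and Cd5l 5.49% and 25.8%.

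**Figure D5:**
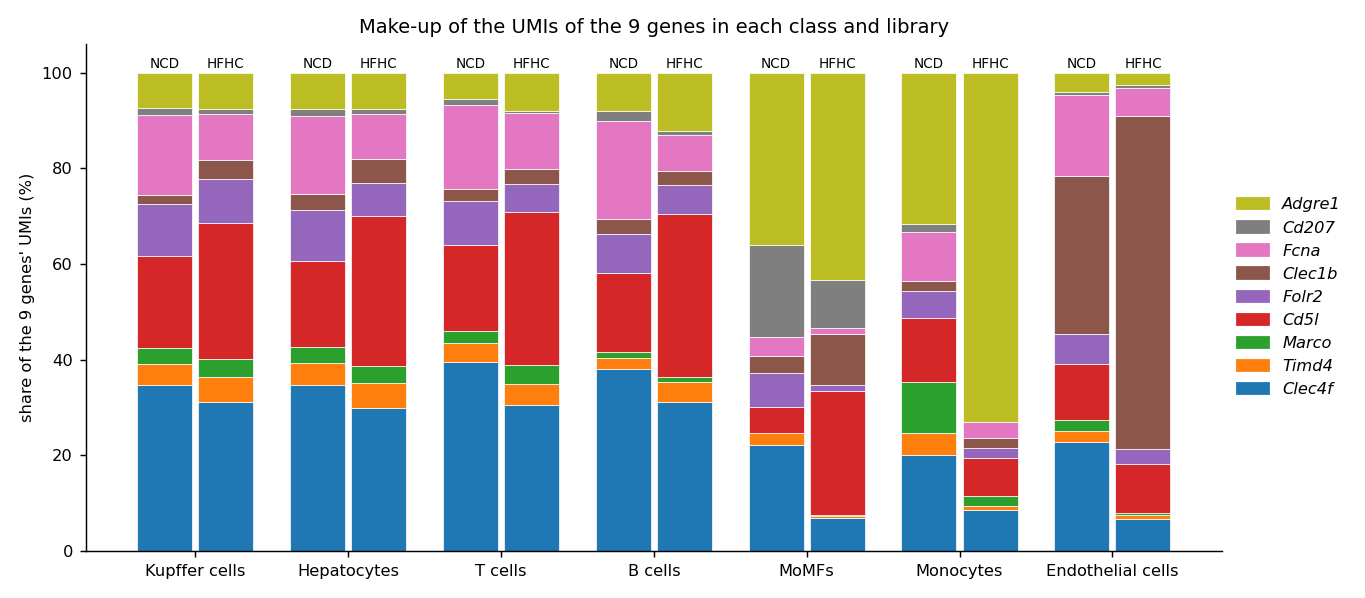
Share (%) of each gene in the summed UMIs of the 9 genes, per cell class and library (NCD on the left of each pair, HFHC pool on the right). Hepatocytes lie near the KCs of their library for Clec4f (34.7% in both in the NCD library) and less so for Cd5l in the pool (31.4 against 28.5%), whereas Clec1b leads in endothelial cells (33.0 and 69.5%) and Adgre1 in monocytes (31.7 and 73.0%).

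Other genes of KCs and macrophages were read from lists beside the 9. Of 16 other KC genes, 3 were lower in the KCs of the pool (Cd163, Sdc3 and Cfp), 1 was higher (Pltp) and 12 stayed within 0.5. Their median was -0.08, beside 14.8% lower and 12.4% higher among all genes in KCs. The list holds all 9 markers by which KCs were named, so that their levels in KCs partly follow from the naming. Without that limit on genes 2 were lower and 2 higher, beside 14.6% and 13.6% of all genes. Vsig4, a complement receptor, stood at 2902 and 2299 CPM, Slc40a1, the iron exporter ferroportin, at 3437 and 2568, Sdc3 at 3469 and 2153, and Cfp, or properdin, at 2361 and 1660 CPM. Of 12 genes of macrophages in general, 3 were lower, 2 were higher and 7 stayed within 0.5, against the same shares of all genes, and with no upper limit 4 were lower and 2 higher, beside 14.6% and 13.6%. Among them C1qb and C1qc of complement C1q stood at 7826 and 5259 and at 7571 and 5577 CPM, whereas their partner chain C1qa was higher, at 1082 and 2622 CPM (log2 ratio 1.28). Of the others Lyz2, lysozyme, at 7340 and 4735, and the protease Ctss at 5318 and 5400 CPM.

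Of 8 genes of lipid-associated macrophages, 7 had enough UMIs in KCs, and 6 of these were higher in the pool and 0 were lower, with a median of 3.92, where 12.4% of all genes were higher and 14.8% lower. Gpnmb stood at 0.747 and 177 CPM, Mmp12 at 2.24 and 105 and Trem2, a lipid receptor, at 73.8 and 193 CPM, while Lpl, lipoprotein lipase, stayed at 2176 and 2185 CPM. The list shares 6 genes with the MoMF markers, whose sum in KCs was 116 CPM in the NCD library against 787 CPM in the pool. Of the 7, 6 were higher with no upper limit as well, beside 13.6% higher and 14.6% lower among all genes.

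The genes most like each member were sought over 27 points (cell classes in each library), among 12215 genes, by Pearson's r of log2 levels. These points share libraries and may share free RNA, so that r is a description only. Vsig4 was most like Clec4f (0.992) and Folr2 (0.990), Folr2 most like Timd4 (0.971), and Clec4f most like Fcna (0.974). Cd5l was closest to Fabp7 (0.984), Marco to Pcolce2 (0.922), Clec1b to Mertk (0.972), Cd207 to BC049352 (0.965) and Adgre1 to Fcgr4 (0.962). Clec4f and Folr2 thus shared their nearest gene, and each of the other 7 had one of its own.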

How the data were processed

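Single non-parenchymal liver cells of mice were measured in 2 libraries. According to the file headers, the authors used the BD Rhapsody WTA Analysis Pipeline 1.10.1 with GENCODE annotation of GRCm38. It counted molecules (UMIs) for each gene of each cell. The deposited values are whole counts as that pipeline gave them, and they are not scaled. The members and gene lists were chosen with earlier results of these data known.

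Cells with 200 to 4000 genes and at most 25% mitochondrial UMIs were kept. SCTransform (sctransform 0.4.2, 4000 variable genes without the 9 members), reciprocal PCA in Seurat 5.3.0 (30 components, 20 neighbours, resolution 0.8, then 0.5 for macrophages and monocytes, seed 42; R 4.3.3) gave clusters. These were named from markers that hold none of the members (score at least 1, at least 3 markers in 10% of cells); in the second clustering, of macrophages and monocytes, a cluster in which a type other than macrophages, monocytes and type 2 dendritic cells reached a score of 2 counted as mixed and entered no class, and among those types the name followed the leading genes. Scrublet (scanpy 1.11.5) called 8.17% of the NCD cells and 2.00% of the pool cells doublets, which were taken out only as an alternative. UMIs were summed per class and scaled to CPM. Log2 ratios were taken after adding 1 UMI to each sum, for every gene whose 2 sums came to 100 UMIs or more, with exact Poisson, conditional binomial or Clopper-Pearson 95% intervals. With 1 library per diet no test was made. The ratio step was tested on simulated data. Likeness used log2 of CPM plus 10. Genes named from lists were the 4 with the most UMIs, beside the members; those of dendritic cells and neutrophils, and genes named where a list's count is small, were chosen after their values were seen. Positions come from GENCODE of GRCm38 and upstream sequences from RefSeq. Alternatives: limits on genes and mitochondrial UMIs, members kept for clustering, each library by itself, doublets out, classes from marker UMIs, scaling by the median ratio, thinning, B cell level subtracted, a minimum of 20 UMIs and a log2 ratio of 1.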

Additional observations from a re-analysis of the deposited data

Results flagged for a closer look

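Cd5l stood on opposite sides of 0 in MoMFs, where it was higher in the HFHC pool (log2 ratio 1.22), and in monocytes, where it was lower (-2.11). The difference between these ratios was 3.33, and it was not tested, since each diet has 1 library. The Cd5l level of monocytes was above that of B cells in the NCD library (87.9 and 42.9 CPM) and below it in the pool (20.2 and 33.6 CPM), and at 2000 UMIs its share of monocytes (6.52% and 4.23%) was no higher than of B cells (6.63% and 6.56%).

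Pool cells above 4000 genes, which the limit on genes removes, held from 61.7% to 81.7% of the UMIs of each of the 9 genes in that library.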

How the results depend on the processing

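No paired analysis was possible because each diet has 1 library. In KCs, calling at a log2 ratio of 1 left 1 gene of 9 lower and 0 higher (3.83% and 3.77% of all genes). KCs above 4000 genes alone gave 2 higher, beside 16.4% of all genes. In MoMFs the number of lower genes was 5 of 7 with a mitochondrial limit of 10% (18.1% of all genes), 1 of 4 with classes from marker UMIs (14.1%) and 6 of 8 with a minimum of 20 UMIs (24.5%), and the number of higher genes was 0 of 2 in thinned cells (24.3%) and 1 of 5 at a ratio of 1 (6.24%). Adgre1 in MoMFs turned to 0.018 with no upper limit on genes. When each library was clustered by itself, no NCD cluster was named MoMFs, and no value was had. In monocytes the number of lower genes was 2 of 3 with no upper limit (13.2%), 1 of 2 with classes from marker UMIs (12.9%), 0 of 1 in thinned cells (12.3%) and 7 of 8 with a minimum of 20 UMIs (16.7%). In endothelial cells it was 8 of 9 with the members kept among the variable genes (18%), with each library clustered by itself (18.2%) and with a minimum of 20 UMIs (18.3%), and 3 of 4 in thinned cells (17.9%). Thinned cells and other minimums change how many genes have enough UMIs; the other causes were not tested.

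Over 16 alternatives in KCs, Fcna ran from -1.27 to -0.40 and was lower in 15, Cd207 from -1.99 to -0.63 and lower in 15, Clec1b from 0.65 to 0.98 and higher in 15, and Folr2 from -0.73 to -0.15 and lower in 10. Of the other 5, Clec4f was lower in 1 (-0.62, mixed clusters counted as KCs), and with KCs above 4000 genes alone Marco was lower (-0.69) and Cd5l higher (0.54). Of the 16 alternatives, 5 were chosen after the data were seen: the largest KC cluster alone, without the KC cluster that carries hepatocyte markers, mixed clusters counted as KCs, KCs above 4000 genes alone, and those of the pool over the other NCD KCs. The lower minimum of UMIs and the call at a log2 ratio of 1 reused the same sums, so their ratios were fixed in advance. In KCs the lower minimum could not change a call either, so it is no check on the counts out of 16. Over all alternatives and classes, 195 single ratios (the fixed ones among them) moved by less than their counting interval or not at all. A further 99 moved by more, and 1 called ratio turned its sign (Adgre1 in MoMFs). Counting ratios under 0.5 too, 12 lay on the other side of 0: Timd4, Marco and Adgre1 in KCs, Adgre1 in MoMFs and Clec1b in endothelial cells. Shares of cells, genes per cell, the Timd4 split, the gaps between classes and the lists with no upper limit were also added after the data were seen. MoMFs had 84 and 93 cells, and 5 of the 9 genes had enough UMIs.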

Other observations

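Type 2 dendritic cells of the NCD library (197 cells) stood far above the B cell level for the KC genes, with Clec4f at 598 CPM (548 to 652), Fcna at 410, Cd5l at 340 and Folr2 at 226 CPM, and those of the pool (174 cells) stood at 14.3, 8.76, 23.1 and 4.78 CPM. Of the 9 genes' UMIs in these NCD cells Clec4f made up 30.2%, Fcna 20.7% and Cd5l 17.1%, beside 34.7%, 16.8% and 19.2% in NCD KCs, and the part of KC RNA, mixed cells or doublets in the levels was not tested. Adgre1, F4/80, was at 184 and 51.8 CPM in them. In neutrophils Adgre1 was at 86.4 and 104 CPM, above its level in B cells (20.9 and 12.0 CPM). Marco was at 8.18 CPM (30 UMIs) and 2.36 CPM (2 UMIs) in neutrophils. Its level in B cells was 2.99 and 1.20 CPM, with overlapping intervals in either library.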
